A study of Mus musculus with 8 samples.

Results

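The genes described here are 10 that write, read or restrain the poly(A) tail of cytoplasmic mRNA in the mouse oocyte: Cpeb1, Cpsf4, Papola, Papd4, Pabpc1, Pabpc1l, Pabpc4, Pabpn1, Paip1 and Paip2. They were chosen by name for their roles, with earlier results of these data known. All 10 had a row among the 37224 genes of the deposited count table. The samples were single oocytes arrested at metaphase II, 4 from Setd1b conditional knockout mice (named Setd1bGdf9cKO, Gdf9 being a gene expressed in oocytes) and 4 from control mice, all after superovulation. Setd1b is a methyltransferase of lysine 4 of histone H3. Each library came from 1 oocyte. The labels give neither the controls' alleles, the strain, the Cre line nor the age, nor do they say how many females gave the oocytes. Every p-value therefore rests on the variation among the oocytes sampled, part of which may be technical.

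A growing oocyte stores much of its mRNA with short tails, held silent by proteins bound to the 3' untranslated region (UTR). During meiotic maturation CPEB1, which binds a U-rich cytoplasmic polyadenylation element, and the CPSF complex, which reads the polyadenylation hexamer, bring a poly(A) polymerase to selected mRNAs. The lengthened tail is bound by cytoplasmic poly(A)-binding proteins (PABPs), which touch the cap-binding complex and favour translation. PAIP1 stimulates and PAIP2 restrains the PABPs. The cDNA kit used here primes on poly(A), so a change in mRNA abundance and a change in tail length cannot be told apart in any value below.

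The library totals ran from 9488899 to 13519404 counts. Levels are given as counts per 1000000 counts (CPM) after scaling by the trimmed mean of M values (TMM), and the floor of 3 counts corresponds to 0.225 to 0.331 CPM. Setd1b was at 4.43, 5.06, 2.97 and 3.54 CPM in knockout replicates 1 to 4 and at 10.7, 12.8, 9.24 and 10.9 CPM in control replicates 1 to 4. The groups did not overlap (log2 fold change -1.44, edgeR quasi-likelihood test, Benjamini-Hochberg adjusted p = 0.0221), and the call was lost with scaling by library totals and without knockout replicate 3 or control replicate 2 (adjusted p = 0.0894, 0.0519 and 0.0540). The summed level of 12 oocyte markers was 10156 to 16214 CPM in knockout and 11628 to 14424 CPM in control oocytes. The sum hides changes of single markers: 5 of the 12 were called higher and 2 lower, with log2 fold changes from -1.43 to 3.02. Of all genes tested 13.6% were called higher and 12.2% lower. The 16 cumulus and granulosa markers summed to 67.4 to 126 CPM in knockout and 105 to 159 CPM in control oocytes, and 8 of them, Amh, Amhr2, Foxl2 and Inha among them, were at 0 in every library. The 14 markers of blood, stroma and oviduct summed to 31.8 to 54.4 and 54.3 to 78.5 CPM, with 7 of 14 at 0 in every library, among them Ptprc and Krt8. In each of these 2 lists 3 markers passed the filter on low counts. Of the cumulus and granulosa markers 0 were called higher and 1 lower. Of the blood, stroma and oviduct markers 1 was called higher and 1 lower, with log2 fold changes from -0.83 to 2.55.

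Of the 9 genes that passed the filter on low counts, 4 rose in the knockout (Paip2, Pabpc1l, Cpsf4 and Papola), 2 fell (Paip1 and Papd4), and Pabpc4, Pabpc1 and Cpeb1 did not pass the test. Pabpn1 was filtered out. Across the 11066 genes tested, 13.6% were called higher and 12.2% lower at an adjusted p of 0.05. Since the members were chosen with earlier results known, nothing about the pathway is read from their counts beside these shares. The same 6 genes were those whose groups did not overlap, which was so for 31.3% of all genes tested (17.7% with the knockout higher and 13.6% with it lower). The median log2 fold change of the 9 genes was 0.56, against 0.10 over all genes tested. That last median was 0.49 with library totals and -0.22 once a trend with gene length was removed, so the members' median lay above it by 0.46, 0.45 and 0.56 in the 3 scalings.

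**Figure D1:**
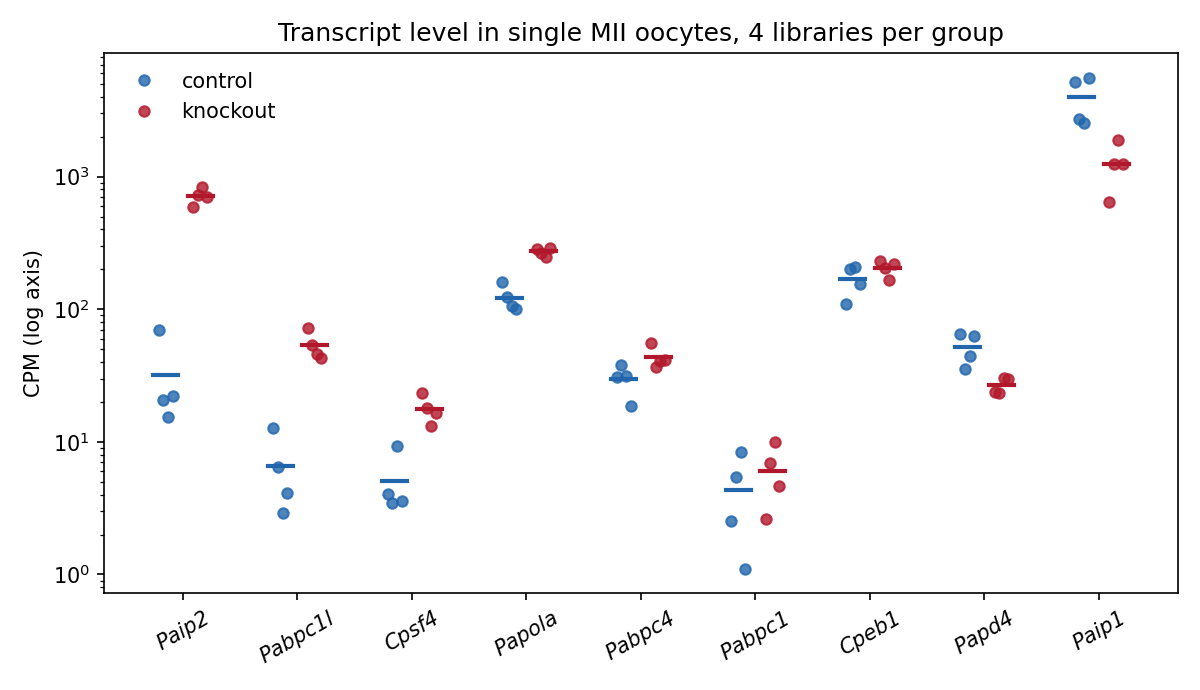
CPM (log axis) of the 9 tested genes, control oocytes in blue and knockout oocytes in red, with a point per oocyte and a bar at the group mean. The knockout oocytes lie above all control oocytes for Paip2, Pabpc1l, Cpsf4 and Papola and below them for Paip1 and Papd4.

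The sequence read by the polyadenylation machinery is shown here for 5 of the members whose annotated 3' end holds it. Each line is the end of the principal GENCODE M21 transcript, 5' to 3', from 6 bases before the hexamer for up to 30 bases, with the hexamer (AATAAA or ATTAAA) in capitals.
Papd4: aaatggAATAAAgtttatatctgg
Pabpc1: tgctttAATAAAaattccttaaacagt
Pabpc1l: ttatatATTAAAaaatgctgcaaaaatc
Pabpc4: aaaggaAATAAAatctccataaatatggct
Paip1: tttgaaAATAAAacttagtttgtttcttct
A hexamer lay in the last 100 bases of 8 of the 10 transcripts and in neither Cpsf4 nor Papola. A cytoplasmic polyadenylation element, searched on the transcript strand as TTTTAT or TTTTAAT, lay in the last 100 bases of 0 of the 10, while 21.4% of 9514 tested genes with a 3' UTR of at least that length held one there. The same letters reversed (TATTTT or TAATTTT) lay in the window of 3 of the 9 tested members and 22.7% of the 9514, and nothing particular to the members is read from so few genes. Elsewhere in the 3' UTR the element itself was found 7 times in Papola, 4 times each in Cpeb1, Papd4 and Paip1, and 2 times in Cpsf4. Pabpc1 and Paip2 held it 1 time each, and Pabpc1l, Pabpc4 and Pabpn1 did not hold it. A match of letters is not a measured site, and the ends used in these oocytes were not measured.

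Cpeb1, the RNA-binding protein that recruits the machinery, was at 229.5, 205, 167 and 218 CPM in the knockout oocytes and at 110, 199.9, 209 and 156 CPM in the controls. The ranges overlapped, control replicate 1 being the lowest of the 8 and knockout replicate 1 the highest. The log2 fold change was 0.28 ± 0.21 (SE), with a 95% confidence interval from -0.19 to 0.75. The adjusted p was 0.368 (edgeR, n = 4 per group), and changes of either sign within that interval were not excluded. The gene lies on the minus strand at chr7:81347026-81455465 (mm10).

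Cpsf4, the 30-kDa subunit of CPSF that contacts the hexamer, was at 23.4, 18.04, 13.1 and 16.5 CPM in the knockout and at 4.08, 3.44, 9.33 and 3.61 CPM in the control oocytes. Control replicate 3 stood apart from the other controls, and was still below the lowest knockout. The mean went from 5.11 ± 2.82 to 17.8 ± 4.30 CPM (SD, n = 4), a log2 fold change of 1.79 ± 0.43 (SE; edgeR, adjusted p = 0.0104). The knockout group held 874 of its counts and the control group 229, on chr5:145167213-145182041. Without control replicate 3 the log2 fold change was 2.26.

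Papola encodes the canonical poly(A) polymerase alpha, which acts in the nucleus and, in oocytes, also in the cytoplasm. Its level was 287, 266, 249 and 291 CPM in the knockout and 160, 124, 105 and 99.8 CPM in the control oocytes. The lowest knockout oocyte was well above the highest control, and the knockout values lay close together. Its log2 fold change was 1.16 ± 0.18 (SE; edgeR, adjusted p = 0.00112) at chr12:105784694-105838944.

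Papd4, also called Tent2 or Gld2, encodes a non-canonical cytoplasmic poly(A) polymerase that CPEB1 complexes can hold. It was at 23.8, 23.6, 30.1 and 29.9 CPM in the knockout and at 65.6, 35.5, 44.1 and 63.0 CPM in the control oocytes. All knockout values were lower than all control values, and the gap between the groups was small beside the spread of the controls. This gave a log2 fold change of -0.95 ± 0.26 (SE; edgeR, adjusted p = 0.0183). The call was lost with library totals (-0.54, adjusted p = 0.110) and without knockout replicate 1 (adjusted p = 0.0577) or 2 (adjusted p = 0.0622). Of its 75-base windows 15.5% also occur in Gm15975, a processed pseudogene on chromosome 5, so reads there are uncertain.

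With TMM scaling Papola thus rose and Papd4 fell. A ratio within each oocyte needs no scaling between libraries, but shows only the level of Papola relative to Papd4. Per kilobase of exon, Papola stood at 3.42, 3.21, 2.34 and 2.76 times Papd4 in the knockout oocytes and at 0.694, 0.990, 0.678 and 0.450 times in the controls. The ratio was higher in every knockout than in every control oocyte. Which of the pair led in the controls depends on the length used: per kilobase of the principal GENCODE M21 transcripts (4380 bases for Papola and 2990 for Papd4, beside 6595 and 1873 exon bases in the deposited table), the ratio was 5.63 to 8.23 in the knockout and 1.08 to 2.38 in the control oocytes. No test was made of this ratio, since both genes were picked with their changes known.

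Among the cytoplasmic PABPs, Pabpc1l, the embryonic poly(A)-binding protein (ePAB) known from oocytes and early embryos, rose. It was at 72.3, 53.4, 46.1 and 42.7 CPM in the knockout and at 12.7, 6.48, 2.89 and 4.11 CPM in the control oocytes. The groups were far apart, with control replicate 1 the highest control and knockout replicate 1 the highest knockout. The mean went from 6.54 ± 4.36 to 53.6 ± 13.2 CPM (SD, n = 4), a log2 fold change of 3.04 ± 0.43 (SE; edgeR, adjusted p = 0.000619). The gene, at chr2:164025450-164050538, was counted 2640 times over the knockout oocytes and 272 times over the controls.

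Pabpc4, an inducible PABP found in many tissues, was at 55.9, 36.6, 40.9 and 41.3 CPM in the knockout and at 30.8, 37.8, 31.4 and 18.6 CPM in the control oocytes. Control replicate 2 was above knockout replicate 2, so the groups overlapped. The log2 fold change of 0.56 had a 95% confidence interval from -0.02 to 1.14 (edgeR, adjusted p = 0.147), and it passed only with library totals (0.94, adjusted p = 0.0364). Of its 75-base windows 44.8% recur in other genes, mostly in Gm10110, a transcribed processed pseudogene on chromosome 14, so its counts are uncertain.

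Pabpc1, the PABP of most somatic cells, was at the 19.3rd percentile of the tested genes per kilobase in control and the 17.5th in knockout oocytes, with 2.63, 6.87, 9.99 and 4.66 CPM in the knockout and 2.54, 5.44, 8.34 and 1.10 CPM in the control oocytes. The ranges overlapped almost fully, and the log2 fold change of 0.47 had a 95% confidence interval from -0.996 to 1.93 (edgeR, adjusted p = 0.649). The interval includes a 2-fold change, the oocytes of each group spread widely, and 42 other genes share 75-base windows with it. Pabpn1, which binds tails in the nucleus, had 1, 2, 0 and 10 counts in the knockout and 0, 6, 34 and 0 in the control oocytes. It was not tested, 34 of its 40 control counts came from 1 oocyte, and 651 of its exon bases overlap Gm20521.

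The makeup of the cytoplasmic PABP mRNA differed between the groups. Per kilobase of exon, Pabpc1l made up 64.9%, 65.6%, 58.7% and 58.6% of the summed Pabpc1, Pabpc1l and Pabpc4 level in the knockout and 36.6%, 18.7%, 10.3% and 23.8% in the control oocytes. Pabpc4 made up 34.0%, 30.4%, 35.2% and 38.4% in the knockout and 59.99%, 73.9%, 75.7% and 73.1% in the controls. Pabpc4 thus led in each control oocyte and Pabpc1l in each knockout oocyte. The summed level of the 3 genes was 40.9, 29.9, 28.8 and 26.7 CPM per kilobase in the knockout and 12.7, 12.7, 10.3 and 6.32 in the control oocytes, again without overlap. Per kilobase of the principal transcripts the same gene led in each oocyte. These shares were not tested, and the pseudogene windows of Pabpc4 bear on all of them.

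**Figure D2:**
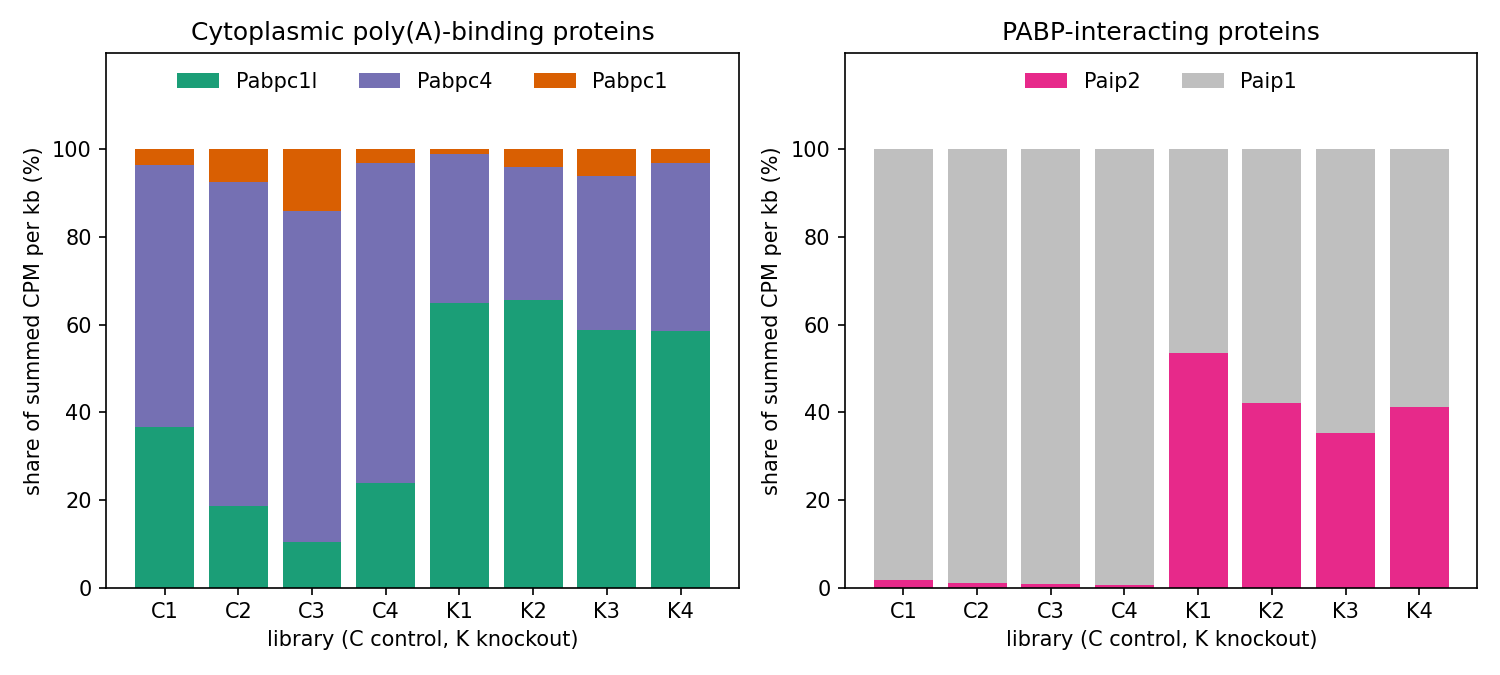
Shares within each of the 8 oocytes, in percent of the summed CPM per kilobase, for the PABP genes Pabpc1, Pabpc1l and Pabpc4 and for the interacting pair Paip1 and Paip2. Pabpc1l holds 58.6% to 65.6% of the PABP sum in the knockout and 10.3% to 36.6% in the control oocytes.

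Of the regulators that bind the PABPs, 1 rose and 1 fell. Paip2, which displaces PABPs from the tail and from the cap-binding complex, was at 595, 724, 835 and 698 CPM in the knockout and at 69.7, 20.8, 15.4 and 22.03 CPM in the control oocytes. Even control replicate 1, the highest control, was several times below the lowest knockout. The log2 fold change was 4.48 ± 0.44 (SE; edgeR, adjusted p = 6.72e-05), and without control replicate 1 it was 5.19. The gene, at chr18:35598617-35617186, went from the 68.2nd to the 98.5th percentile of the tested genes by CPM per kilobase. Paip2b, a related inhibitor that was chosen after its value was seen, moved up from 202 ± 51.8 to 321 ± 29.3 CPM (log2 fold change 0.66, edgeR, adjusted p = 0.0292), and its call was lost without knockout replicate 1, 2 or 4 or control replicate 1 or 2 (adjusted p from 0.0607 to 0.0824).

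Paip1, which resembles the central part of eIF4G and holds PABP to eIF4A, was at 643, 1236, 1895 and 1236 CPM in the knockout and at 5185, 2710, 2545 and 5585 CPM in the control oocytes. Knockout replicate 3 was the highest of its group and still below the lowest control, replicate 3. Its log2 fold change was -1.68 ± 0.34 (SE; edgeR, adjusted p = 0.00446) at chr13:119428601-119458218. Even so, Paip1 was the highest of the 10 genes per kilobase in both groups, at 1159 ± 463 CPM per kilobase in control and 362 ± 148 in knockout oocytes (SD, n = 4).

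Set against each other per kilobase, Paip2 made up 53.4%, 42.0%, 35.3% and 41.2% of the Paip1 and Paip2 sum in the knockout and 1.64%, 0.942%, 0.746% and 0.487% in the control oocytes. In every control oocyte Paip2 was a trace beside Paip1, and in knockout replicate 1 it was the larger of the pair, also per kilobase of the principal transcripts. Against the summed level of the 3 cytoplasmic PABPs, Paip1 stood at 4.55 to 19.0 times in the knockout and 61.7 to 255.5 times in the control oocytes. Paip2 stood at 5.22 to 10.4 times that sum in the knockout and 0.538 to 1.96 times in the controls. Both ratios separated the groups, and neither was tested.

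By level per kilobase the genes came in the order Paip1, Cpeb1, Papd4, Papola, Paip2, Pabpc4, Pabpc1l, Cpsf4, Pabpc1 and Pabpn1 in control oocytes. In the knockout oocytes the order was Paip1, Paip2, Cpeb1, Papola, Pabpc1l, Papd4, Pabpc4, Cpsf4, Pabpc1 and Pabpn1. Paip2 moved from the fifth to the second place and Papd4 from the third to the sixth. Places depend on the length used: per kilobase of the principal transcripts Paip2 moved from place 4 to 2 and Papd4 from place 5 to 8. By that length Papola and Paip2 preceded Papd4 in the controls, and Cpsf4 preceded Pabpc1l there. In the knockout Pabpc4 and Cpsf4 then preceded Papd4. Among the controls the means of Cpeb1 (40.3 ± 10.9 CPM per kilobase), Papd4 (27.8 ± 7.80) and Papola (18.5 ± 4.16) stood close beside their spread (SD, n = 4), as did those of Cpeb1 (48.9 ± 6.53) and Papola (41.4 ± 2.99) in the knockout.

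**Figure D3:**
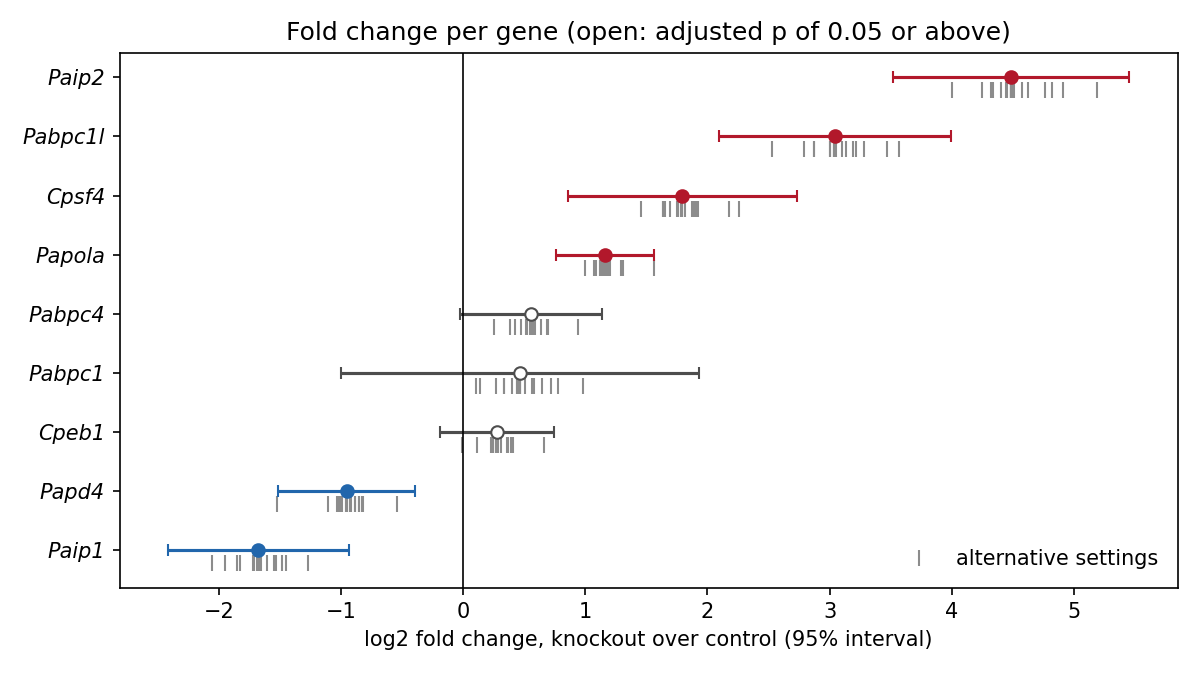
Log2 fold change (knockout over control) of the 9 tested genes with 95% confidence intervals, and the values under the alternative settings as small marks. The intervals of Cpeb1, Pabpc1 and Pabpc4 cross 0, and those of the other 6 genes do not.

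The authors' deposited table, whose 2709 genes have adjusted p-values up to 0.009996, holds the same 6 genes, all in the directions above. The unshrunken log2 fold changes of the authors' deposited table are 4.44 for Paip2, 3.00 for Pabpc1l, 1.75 for Cpsf4, 1.12 for Papola, -0.996 for Papd4 and -1.72 for Paip1. Papd4 has the largest adjusted p of the 6 in the authors' deposited table, 0.00120.

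Promoters are shown for Pabpc1l and Papola, which rose, and Paip1, which fell, because Setd1b and related enzymes are known to act at CpG-rich promoters. Each is 300 bases of the plus strand, 250 before to 50 after a RefSeq start (GRCm38.p6), 5' to 3', with CG dinucleotides in capitals. They lie at chr2:164024974-164025273, chr12:105784447-105784746 and chr13:119428350-119428649.
Pabpc1l: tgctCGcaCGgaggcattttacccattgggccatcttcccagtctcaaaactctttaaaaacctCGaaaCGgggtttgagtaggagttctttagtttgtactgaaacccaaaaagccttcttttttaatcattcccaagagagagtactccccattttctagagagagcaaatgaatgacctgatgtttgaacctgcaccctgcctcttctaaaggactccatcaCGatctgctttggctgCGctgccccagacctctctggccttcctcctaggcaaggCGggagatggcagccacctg
Papola: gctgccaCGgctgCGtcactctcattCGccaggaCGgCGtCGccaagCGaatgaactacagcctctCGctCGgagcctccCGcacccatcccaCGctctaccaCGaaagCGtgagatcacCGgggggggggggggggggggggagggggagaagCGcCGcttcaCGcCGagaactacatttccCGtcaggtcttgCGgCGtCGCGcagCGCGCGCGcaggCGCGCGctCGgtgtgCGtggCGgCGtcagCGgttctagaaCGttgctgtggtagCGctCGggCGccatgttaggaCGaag
Paip1: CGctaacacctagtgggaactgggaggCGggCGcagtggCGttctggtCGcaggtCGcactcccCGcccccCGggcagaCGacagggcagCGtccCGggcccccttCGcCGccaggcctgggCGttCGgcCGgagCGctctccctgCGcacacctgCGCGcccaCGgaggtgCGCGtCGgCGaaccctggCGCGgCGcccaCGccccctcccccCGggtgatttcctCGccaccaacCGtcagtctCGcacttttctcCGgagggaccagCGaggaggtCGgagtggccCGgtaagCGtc
The promoter of Pabpc1l held 7 CG dinucleotides, equal to the median of 7 over 32851 mouse promoters of the same length, whose quartiles were 3 and 20. Papola held 40, and this start of Paip1 held 38 and a second start 49. Among the others, Cpsf4 held 35 at both of its starts, Cpeb1 33, Pabpn1 25, Papd4 23 and Pabpc4 19. Genes that rose and genes that fell were both found among the CG-rich promoters. Promoter values are given for 8 of the 10 genes. Pabpc1 and Paip2, the gene with the largest rise, are not among them. Histone methylation was not measured here.

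The other genes of the pathway came from 6 lists written by role, with earlier results of these data known. Of the 96 genes outside the 10, 88 passed the filter, of which 7 rose and 24 fell, with a median log2 fold change of -0.29. These are 7.95% and 27.3% of the list, beside 13.6% and 12.2% of all genes tested. With library totals 20 rose and 9 fell, or 22.7% and 10.2% of the list beside 21.5% and 4.55% of all genes.

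Within the nuclear cleavage and polyadenylation complex, to which Cpsf4 belongs, 0 of 16 tested genes rose and 2 (12.5%) fell, the latter share being close to the 12.2% of all genes, with a median of 0.02. At an unadjusted p of 0.05 edgeR gave 2 higher and 4 lower, beside 2249 and 1950 of all 11066 genes tested. DESeq2 called 1 higher and 4 lower, beside 2148 and 1834 of 18481 genes with a count. Cpsf2, a further CPSF subunit, fell from 142 ± 13.6 to 74.3 ± 15.5 CPM (log2 fold change -0.93), and Cstf2t, a paralog of the cleavage stimulation factor Cstf2, fell by 2.05 on the log2 scale with overlapping groups, a call lost without knockout replicate 1 (-1.86, edgeR, adjusted p = 0.0646). Wdr33 and Fip1l1, partners of Cpsf4 in reading the hexamer, had log2 fold changes of -0.58 (edgeR, adjusted p = 0.0624) and 0.26 (adjusted p = 0.239), Fip1l1 being chosen after its value was seen. Nudt21 had a log2 fold change of 1.78 (edgeR, adjusted p = 0.0741) at low levels, 0.640 to 1.24 CPM in control and 2.42 to 3.91 CPM in knockout oocytes. With library totals 4 genes of the complex (25%) were called higher and 1 (6.25%) lower, beside 21.5% and 4.55% of all genes.

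Of 9 other poly(A) and terminal nucleotidyl transferases, 1 rose and 1 fell (11.1% each way, close to the shares of all genes), with a median of 0.32. Fam46b (Tent5b) moved up from 25.8 ± 5.68 to 89.9 ± 35.9 CPM, by 1.80 on the log2 scale, and Papd7 (Tent4a) fell from 659 ± 85.7 to 409 ± 51.2 CPM (-0.69). Papolg, a relative of Papola, had a log2 fold change of -0.77 (edgeR, adjusted p = 0.0966). That of Mtpap, the mitochondrial enzyme, was -0.63 (edgeR, adjusted p = 0.108), and the groups overlapped for both genes.

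Among 18 CPEB relatives and partners in translational control, 1 (5.56%) rose and 4 (22.2%) fell, beside 13.6% and 12.2% of all genes, with a median of -0.22. The repressor Pum2 (log2 fold change -0.86), Lsm14b, a component of stored mRNA particles (-0.65), and the oocyte cap-binding protein Eif4e1b (-0.72) fell. Dazl, which acts together with Cpeb1 on some mRNAs and was chosen after its value was seen, fell by 0.59, and its call was lost without knockout replicate 1, 2 or 4 or control replicate 1 (edgeR, adjusted p from 0.0536 to 0.0765). Ybx2 (Msy2), which coats stored mRNA, went from 5.55 ± 0.928 to 16.1 ± 5.49 CPM and passed (1.54). Its call was lost without knockout replicate 1 (1.32, edgeR, adjusted p = 0.0514). It was lost too with the length trend removed, where 0 genes of this list were called higher. The paralogs Cpeb3 (-0.58, edgeR, adjusted p = 0.0613) and Cpeb4 (-0.53, adjusted p = 0.0850), also chosen after their values were seen, did not pass. With library totals 3 genes of this list (16.7%) were called higher and 1 (5.56%) lower, beside 21.5% and 4.55% of all genes.

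Of 19 other PABPs and PABP partners, 2 (10.5%) rose and 6 (31.6%) fell, beside 13.6% and 12.2% of all genes, with a median of -0.10. Neither of the 2 higher calls held without knockout replicate 1, 2 or 4. Pabpn1l, the oocyte relative of Pabpn1, showed the smallest p on the list and fell from 104 ± 27.6 to 11.5 ± 0.447 CPM. Eif4g2, a relative of the scaffold that PABPs bind, fell from 1137 ± 116 to 469 ± 19.5 CPM, and the PABP-binding proteins Larp4b (log2 fold change -1.15) and Larp4 (-0.80) fell too. With library totals 7 (36.8%) rose and 4 (21.1%) fell, beside 21.5% and 4.55% of all genes.

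Of 16 deadenylases and their adaptors, which shorten tails, 3 (18.8%) rose and 6 (37.5%) fell, beside 13.6% and 12.2% of all genes, with a median of -0.36. Btg4, which brings CCR4-NOT to maternal mRNA (log2 fold change -1.54), the catalytic subunit Cnot7 (-1.22) and Pan2, of the PAN2-PAN3 deadenylase (-0.62), fell. Tob1, an adaptor that binds PABP and Cnot7, went up from 1.16 ± 1.503 to 25.1 ± 7.03 CPM (log2 fold change 4.40). Without control replicate 3, which was at 3.38 CPM, the log2 fold change was 5.89. Control replicates 1, 2 and 4 were at 0.661, 0.480 and 0.100 CPM, near or below the floor of 3 counts, so the size of the change is uncertain. With library totals 3 (18.8%) rose and 2 (12.5%) fell, beside 21.5% and 4.55% of all genes. Without knockout replicate 1 the count of lower genes was 3, and without knockout replicate 2 or 4 that of higher genes was 1.

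The last list held 13 mRNAs with known cytoplasmic polyadenylation in oocytes, not only in maturing ones. Of these 8 (61.5%) fell, 0 rose and 5 did not pass, with a median of -0.76. At an unadjusted p of 0.05 edgeR gave 9 lower and 0 higher, beside 1950 and 2249 of all 11066 genes tested. DESeq2 and limma each called 8 lower and 0 higher. Over all genes DESeq2 called 1834 lower and 2148 higher, and limma 1537 lower and 1846 higher. Without knockout replicate 1, 2 or 4 the count of lower genes was 5, and without control replicate 1 there was 1 higher gene. Spin1 fell from 20745 ± 4000 to 7822 ± 2146 CPM, Slbp, which binds histone mRNA, from 1284 ± 132 to 756 ± 119.9 CPM, and Btg4 and Cnot7 are on this list too. Ccnb1 (cyclin B1), a classical Cpeb1 target chosen after its value was seen, fell by 0.78 on the log2 scale, while Mos (-0.76, edgeR, adjusted p = 0.120) and Plat (0.67, adjusted p = 0.143), chosen likewise, did not pass. With library totals 3 of the 13 (23.1%) fell and 1 rose, beside 4.55% and 21.5% of all genes. The list's median lay below that of all genes by 0.86 with TMM, 0.86 with library totals and 0.84 with the length trend removed.

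**Figure D4:**
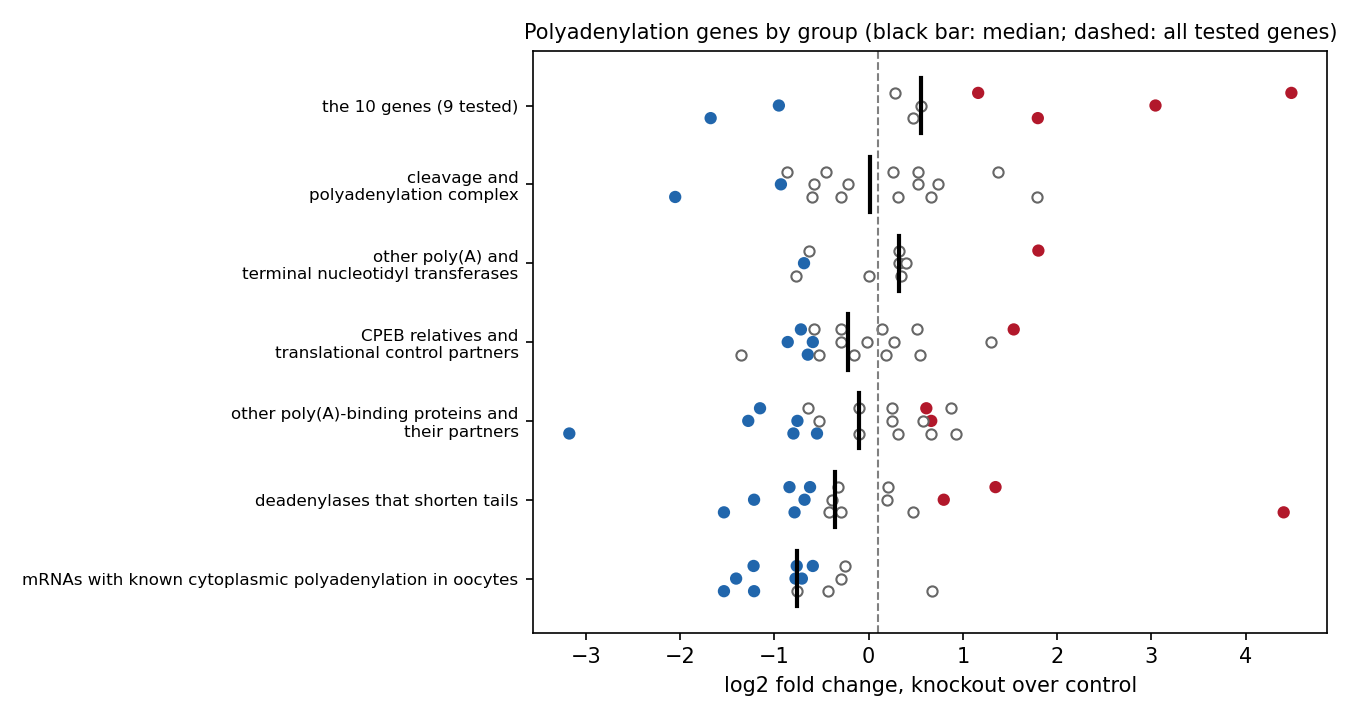
Log2 fold change (knockout over control) of each tested gene, 1 row per list with its median as a line. The mRNAs with known cytoplasmic polyadenylation have a median of -0.76 and the 10-gene set one of 0.56.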

How the data were processed

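Per the labels' protocols, each of 8 single oocytes was lysed and its RNA was amplified with the SMARTer Ultra Low kit, and libraries were read as 75-base single reads. The kit marks no strand and has no molecular identifiers, so PCR duplicates remain in the counts, and the intervals rest on the spread between libraries, in which oocyte and amplification differences cannot be told apart. Tools named in the submitters' processing notes are GSNAP, featureCounts 1.4.4 and DESeq2 1.3.79, with build mm10. The deposited counts rest, per the file headers, on the gene models of Ensembl 69, reads of mapping quality 1 or more and no strand setting. The authors' deposited comparison holds log2 fold changes and adjusted p-values, quoted only where named.

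Counts were tested with edgeR 4.0.16 (R 4.3.3; quasi-likelihood F test, TMM, filterByExpr, genotype only), adjusted over 11066 genes by the Benjamini-Hochberg method, with a threshold of 0.05. CPM use TMM-scaled totals, and levels between genes are CPM per 1000 exon bases of the deposited table, with the length of the principal transcript as an alternative chosen after seeing the data. DESeq2 1.42.0, limma 3.58.1 and the other alternatives are in the closing section. On simulated data with the same 11066 genes, the test recovered 21 of 100 genes at 2-fold and 52 of 100 at 4-fold, with 4 unchanged genes called. No other genes were changed in the simulation, while 25.8% of genes were called in the data. The adjustment was therefore stricter in the simulation, and its recovery rates do not measure the power in the data. Summaries were made in Python 3.11.15.

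The 10 genes and all lists were chosen with earlier results of these data known. Named genes are the members, Setd1b and the 4 tested genes of each other list with the smallest p, and any others are said to be chosen after their values were seen. Sequences came from GENCODE M21 transcripts and RefSeq promoters. Of 152 list entries 1 had no match by symbol. Within groups libraries correlated at 0.968 to 0.981 and differed by more than sampling noise, so none was counted more than once.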

Additional observations from a re-analysis of the deposited data

Results flagged for a closer look

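Each result here has 1 oocyte whose gap to the nearest of its group exceeds Dixon's 95% critical value for 4 samples, as a share of the group's range. Of 82 groups checked, 9 met this, and chance flags about 1 in 20. Among the 10 genes these were Paip2 in control replicate 1 (69.7 CPM, the others 15.4 to 22.03), Cpsf4 in control replicate 3 (9.33 CPM, the others 3.44 to 4.08) and the untested Pabpn1 in knockout replicate 4 (0.932 CPM). For Paip2 and Cpsf4 the oocyte lay on the side of the knockout values and below all of them.

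Among the other named genes, Wdr33 was at 196.6 CPM in control replicate 4, Tob1 at 3.38 CPM in control replicate 3 and Cpeb4 at 158.9 CPM in knockout replicate 1. Knockout replicate 3 was apart for Lsm14b (504.8 CPM, the lowest of its group) and for Larp4b (189.8 CPM, the highest). Larp4b was also apart in control replicate 4, at 391.5 CPM.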

How the results depend on the processing

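Over 12 other settings and 8 runs that left out 1 oocyte, the 4 higher members stayed called, except that 3 of them passed at an adjusted p of 0.01, and library totals added Pabpc4 for 5. Members called lower went from 2 to 1 with library totals, with a replicate block, at an adjusted p of 0.01 and at a minimum of 2-fold, and ranged from 1 to 2 when 1 oocyte was left out. The log2 fold change of Cpeb1 was -0.00995 once the length trend was removed. All genes called higher (1503) were 2382 with library totals and 747 at an adjusted p of 0.01, and all called lower (1347) were 504, 2331 without the length trend, 644 at 0.01 and 623 at 2-fold. The other pathway genes called higher (7) were 20 with library totals, 3 without the length trend, 12 at a minimum of 10 CPM in 4 libraries, 2 at 0.01 and 4 at 2-fold, and those called lower (24) were 9, 35, 23, 12 and 8. Leaving out 1 oocyte gave 1012 to 1597 higher and 837 to 1244 lower genes, and 3 to 8 higher and 16 to 25 lower pathway genes. With library totals the calls of Cpsf2, Papd7, Lsm14b, Eif4e1b, Dazl, Pan2, Slbp and Ccnb1 were lost. The cause of these shifts was not tested.

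The labels' replicate numbers did not pair the oocytes: same-numbered oocytes deviated from their group means with correlations of -0.064, -0.021, -0.117 and -0.060. With a replicate block, 4 members were higher and 1 lower, Papd4 having an adjusted p of 0.0528 (edgeR). All genes called lower were 861 with the block, and the other pathway genes 4 higher and 13 lower, with 2 deadenylases and 4 of the mRNAs with known cytoplasmic polyadenylation lower.

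Depth limits Pabpn1, at 13 and 40 counts. Thinned to the smallest library, Pabpc1 had a log2 fold change of 0.51 beside 0.47.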

Other observations

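The ends of the 3' UTRs were also read over all tested genes, in the last 100 bases of 9514 principal transcripts. A cytoplasmic polyadenylation element (TTTTAT or TTTTAAT) lay in 15.3% of 1305 genes called higher, 31.9% of 1259 called lower and 20.6% of those not called. The same letters reversed (TATTTT or TAATTTT), a comparison added after these shares were seen, gave 18.5%, 28.5% and 22.4%, and the median A+T content of the windows was 64%, 70% and 66%. The median 3' UTR was 788 bases long for higher and 1394 for lower genes. These are shares of annotated sequence, with no test. Of the 13 mRNAs with known cytoplasmic polyadenylation, 6 held the element in this window, Spin1, Btg4 and Cnot7 among them, and 6 held the reversed letters.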
